A study of Homo sapiens with 6 samples.

Results

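Peaks of the long noncoding RNA CRLM1 were examined around 10 genes of the epithelial-mesenchymal transition (EMT) program: the transcription factor genes ZEB1, ZEB2, SNAI1, SNAI2, SNAI3, TWIST1, TWIST2 and FOXD3, the ZEB1 antisense lncRNA gene ZEB1-AS1, and VIM, which encodes vimentin. They were chosen by name from 62663 genes annotated on the main chromosomes, and every peak touching a gene body or 100 kb on either side of it was kept. The windows formed 9 intervals, since those of ZEB1 and ZEB1-AS1 merge, and covered 2.47 Mb, or 0.0841% of the ungapped genome. They held 36 peaks over 4 peak lists, at 32 distinct positions. Of these positions, 13 lay inside a member gene and 19 outside, and 9 of the 10 members had a peak in at least 1 list. In single lists, between 3.22% and 59.9% of all genes had a peak in such a window. The share of all genes over the 4 lists together was not computed, so the 9 of 10 has no baseline. No member had a peak within 5 kb of its transcription start site, and at most 4.4% of all genes did in any single list.

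The libraries came from HCT116, an established human colorectal carcinoma cell line, and were made by chromatin isolation by RNA purification (ChIRP), in which biotinylated antisense DNA probes capture a crosslinked RNA together with its associated chromatin. There were 6 libraries in 3 groups of 2 replicates: capture with CRLM1 antisense oligos, capture with LacZ antisense oligos as the negative control, and genomic DNA input. The cells of all 3 groups were cultured and crosslinked in the same way, without knockdown or overexpression in the labels. Nothing in the labels says whether replicates 1 and 2 came from separate cultures, and peak lists cannot show whether a gene is expressed, so neither the cell type nor a change in expression was checked.

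EMT is the switch in which epithelial cells lose adhesion and polarity and gain motility. ZEB, SNAIL and TWIST proteins are its best known inducers: the zinc finger proteins ZEB1, ZEB2, SNAI1 and SNAI2 repress epithelial genes such as CDH1 through E-box sequences, and TWIST1 and TWIST2 are basic helix-loop-helix factors. FOXD3 is a forkhead factor known from the neural crest, and vimentin is the intermediate filament protein widely used as a mesenchymal marker. Binding of an RNA near such a gene would be a route by which it could act on the program, and the distance of the peaks from the transcription start site (TSS) and their recurrence between replicates and controls are the measurements that bear on it here.

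The lists differ greatly in size, which sets how many peaks any window receives. Each CRLM1 library was compared with the Input or the LacZ library of its own replicate number, and the lists are written rep1/Input, rep1/LacZ, rep2/Input and rep2/LacZ here. On the main chromosomes, rep1/Input held 9331 peaks (3.18 per Mb), rep1/LacZ 10310 (3.51), rep2/Input 16777 (5.71) and rep2/LacZ 363 (0.124), so that the last stands apart. Both lists of a replicate share the same CRLM1 library and are not independent. At the CRLM1 gene itself, annotated as LINC01767, each list had 1 peak, with a score between 935.57 and 1580.45 and rank 1 or 2. The score is the value the peak caller gave each peak. It starts at 50 in every list, its scale is not stated in the sources used here, and it was used to rank peaks within a list. The sequencing depth is unknown.

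The distal part of ZEB1 held the largest group of member peaks. Its sequences are given first because they carry 3 of the 4 member positions called against both controls, followed by the position inside ZEB1-AS1 called against both controls, and the transcription factor peak nearest to a TSS, in TWIST1. All are GRCh38 reference sequence of the plus strand, 5′ to 3′, either the whole peak or its central 300 bases. Capitals mark the E-box motif CAGGTG or its reverse complement, and runs of 4 or more C or G.
ZEB1 intron, replicate 1, chr10:31512260-31512499: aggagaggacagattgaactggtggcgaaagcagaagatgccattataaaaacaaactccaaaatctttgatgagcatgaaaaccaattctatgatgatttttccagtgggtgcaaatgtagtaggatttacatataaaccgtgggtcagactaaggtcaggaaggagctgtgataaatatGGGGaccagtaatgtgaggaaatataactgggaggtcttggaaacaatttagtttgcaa
ZEB1 intron, replicate 1, chr10:31506576-31506875: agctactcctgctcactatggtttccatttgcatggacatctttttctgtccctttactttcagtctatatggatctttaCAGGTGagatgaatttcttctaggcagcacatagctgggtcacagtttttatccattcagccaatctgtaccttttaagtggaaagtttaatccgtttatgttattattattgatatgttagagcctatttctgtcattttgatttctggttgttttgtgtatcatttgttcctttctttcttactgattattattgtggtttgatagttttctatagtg
ZEB1 intron, replicate 1, chr10:31525794-31526093: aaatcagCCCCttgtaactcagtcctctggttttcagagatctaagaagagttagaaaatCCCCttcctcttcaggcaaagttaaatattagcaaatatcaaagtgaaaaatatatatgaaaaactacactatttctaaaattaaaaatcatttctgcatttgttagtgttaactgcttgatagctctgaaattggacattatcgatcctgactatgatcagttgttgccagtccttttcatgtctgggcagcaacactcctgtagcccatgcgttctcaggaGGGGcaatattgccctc
ZEB1-AS1 intron, replicate 1, chr10:31233583-31233882: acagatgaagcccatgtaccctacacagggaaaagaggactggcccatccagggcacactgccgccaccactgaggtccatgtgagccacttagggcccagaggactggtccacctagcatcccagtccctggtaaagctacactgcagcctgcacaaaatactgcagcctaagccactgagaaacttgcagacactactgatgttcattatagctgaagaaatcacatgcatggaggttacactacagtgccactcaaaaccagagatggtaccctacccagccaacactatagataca
TWIST1 intron, replicate 1, chr7:19101103-19101402: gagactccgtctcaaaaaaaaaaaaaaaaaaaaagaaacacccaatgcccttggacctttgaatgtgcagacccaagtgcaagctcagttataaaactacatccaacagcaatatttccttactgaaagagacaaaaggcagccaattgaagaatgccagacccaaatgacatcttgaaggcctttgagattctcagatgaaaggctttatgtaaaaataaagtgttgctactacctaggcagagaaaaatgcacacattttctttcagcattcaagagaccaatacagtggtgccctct

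ZEB1 (ENSG00000148516.23) runs from 31318495 to 31529814 on the plus strand of chromosome 10. In replicate 1, 3 intronic peaks near its 3′ end were called against both controls with identical coordinates. The peak at chr10:31512260-31512499 scored 69.00 against Input and 79.33 against LacZ, ranks 1458 of 9331 and 914 of 10310. The peak at chr10:31506511-31506940 scored 54.61 against Input and 61.36 against LacZ, and that at chr10:31525757-31526130 scored 53.47 and 61.25. The scores were thus moderate, and those of the flanking peaks lay below the median of the list against Input, 56.11, and above that against LacZ, 57.95. Together the peaks spanned 19.6 kb, starting 23.3 kb and ending 3.68 kb before the gene end, and lay 188, 194 and 207 kb from the TSS.

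The rep2/Input list had 2 peaks inside ZEB1, neither of which overlapped those of replicate 1. The peak at chr10:31475714-31476176 lay 157 kb from the TSS and scored 50.25, close to the floor of its list. No peak of rep2/LacZ lay in the window, and the nearest was 19800 kb from the ZEB1 TSS. Of the 4698 replicate 1 peaks called against both controls, 21 (0.447%) fell in runs of at least 3 peaks within 20 kb, in 7 runs, of which the ZEB1 run was 1. This description of runs was chosen after the values were seen.

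**Figure D1:**
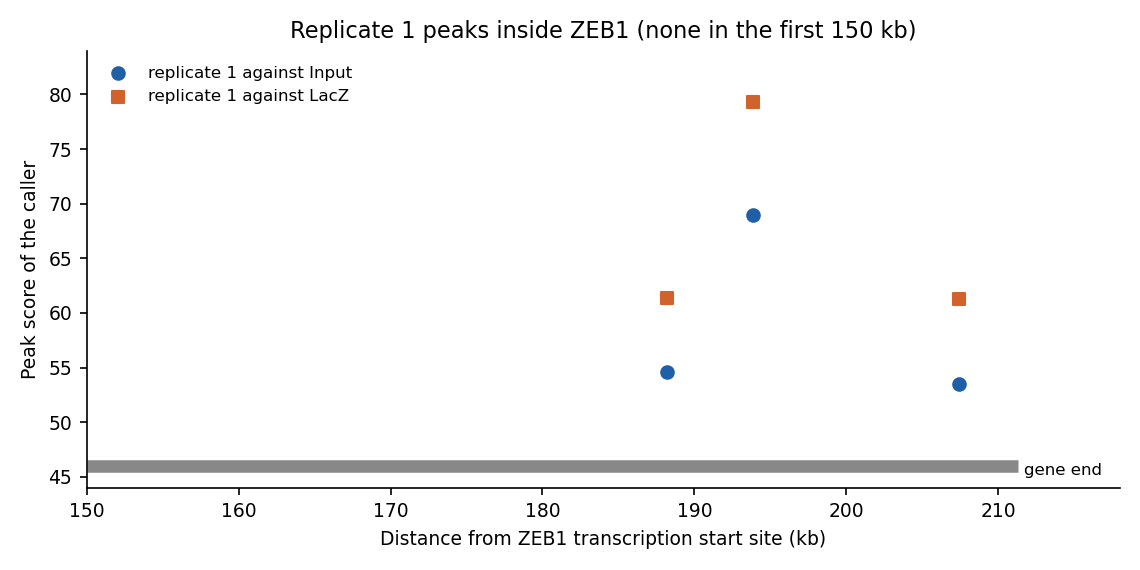
Replicate 1 peaks inside ZEB1 by the distance of their midpoint from the ZEB1 TSS (x axis, kb) and their score (y axis, the peak caller's value, which starts at 50). Points are single peaks coloured by list, and the grey bar is the last part of the gene body. Each of the 3 positions carries a blue point (Input) and an orange point (LacZ), and the orange one is the higher at each, up to 79.33.

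ZEB1-AS1 (ENSG00000237036.7) is transcribed from the opposite strand of the ZEB1 promoter, and its annotation covers 31206278 to 31320447. Its peak at chr10:31233529-31233937 lay in introns of ZEB1-AS1 and of the lncRNA gene LINC02664. It scored 57.60 against Input and 87.32 against LacZ in replicate 1, the latter rank 518 of 10310. It was 86.5 kb from the ZEB1-AS1 TSS and 84.6 kb upstream of the ZEB1 TSS, and the nearest replicate 2 peak was 182499 bp away. A peak in the same introns, chr10:31213501-31213871, was called only in rep1/LacZ, with a score of 61.65. The GENCODE gene is 114 kb long, whereas the RefSeq gene is 12.7 kb long and covers 31307717 to 31320447, so both peaks lie outside the latter. No peak lay within 50 kb of the ZEB1 and ZEB1-AS1 start sites in any list.

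The merged ZEB1 and ZEB1-AS1 window of 524 kb had 7 peaks in rep1/LacZ where its length gave 1.84, with an exact Poisson 95% interval of the count from 2.81 to 14.4. Against Input, replicate 1 had 4 peaks where 1.66 would fall by length (1.09 to 10.2), and replicate 2 had 2 where 2.99 would fall. The lower bound was therefore above the number given by length in rep1/LacZ and below it in the others. With 9 windows looked at in each of 4 lists, this was the only count of that kind, and no allowance was made for their number. The number by length again assumes the genome-wide density of the list. These intervals, and those below, cover counting error only.

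VIM (ENSG00000026025.16, chromosome 10, 17228241 to 17237593, plus strand) carried the strongest member peak and the one nearest to a TSS. The peak at chr10:17236989-17237812 was called in rep1/LacZ with a score of 133.60, rank 29 of 10310, within the top 0.281% of the list. It lay 8.75 kb downstream of the TSS at the 3′ end of the gene. Of its 824 bp, 605 were inside the gene and 219 past its end, and 364 bp were exon, all of it untranslated in some transcript and 39 bp also coding in some. Its width was 2.09 times the list median of 395 bp.

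The same position was not called against Input in replicate 1, nor in replicate 2 against either control. Of the 212 peaks of rep1/LacZ with a score of at least 100, 169 overlapped a peak called against Input and 43, the VIM peak among them, did not. Peaks on exons of protein-coding genes made up 7.87% of this list and 4.43% of the replicate 1 list against Input. Among the 100 strongest peaks of each they numbered 11 and 3. The reads of the CRLM1 and LacZ libraries at VIM were not analysed here.

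The other peaks of the VIM window lay in TRDMT1, the neighbouring gene of a tRNA methyltransferase. The rep2/Input list had chr10:17171331-17171733 with a score of 78.15, rank 1463 of 16777 and 56.5 kb upstream of the VIM TSS. The rep1/Input list had chr10:17175596-17176066, 3862 bp away, with a score of 50.45. A peak at 17151567 scored 57.44 in rep2/Input. VIM thus had a peak in its window in both replicates against Input, though neither of them was in VIM.

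**Figure D2:**
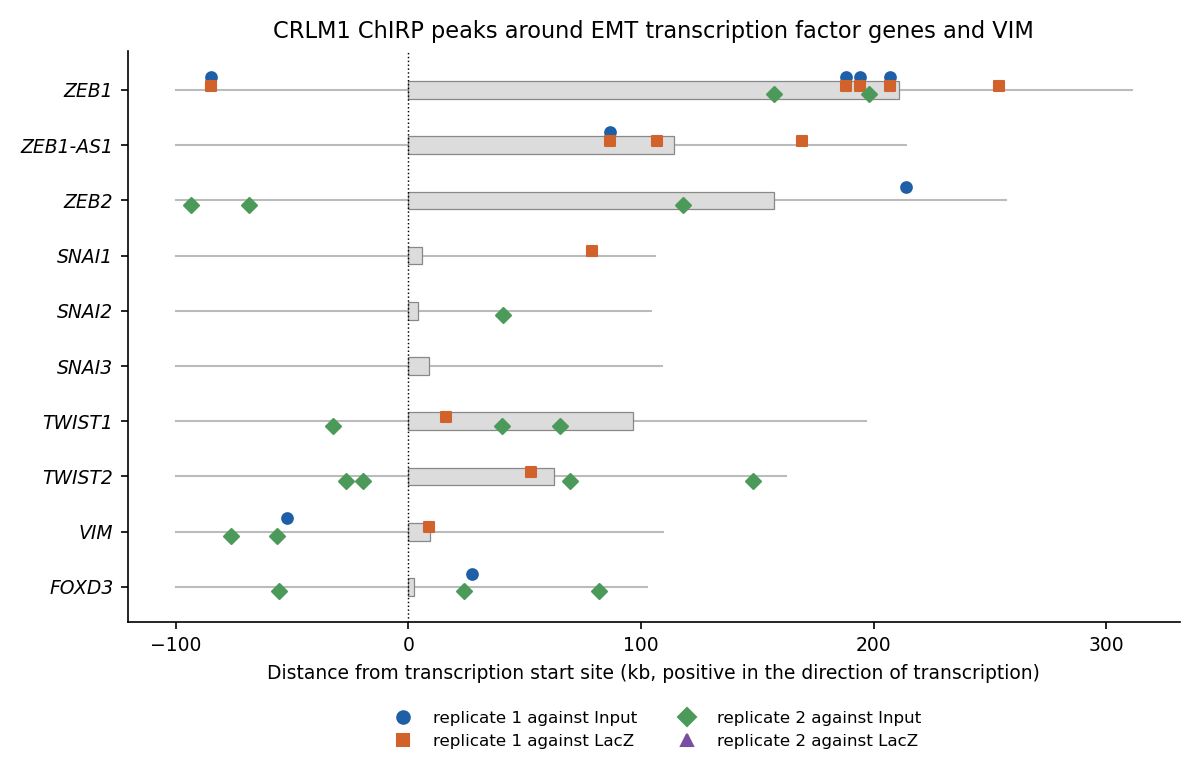
Peaks around each member gene by distance from its TSS (x axis, kb, positive in the direction of transcription). Grey bars are GENCODE gene bodies, grey lines the windows of 100 kb on either side, and symbols the peaks of each list. No symbol lies nearer to the dotted TSS line than 8.75 kb, and SNAI3 has none.

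TWIST1 (ENSG00000122691.13, chromosome 7, 19020991 to 19117636, minus strand) had 1 peak in rep1/LacZ and 3 in rep2/Input. The former, chr7:19101064-19101442, scored 52.83 and lay 16.2 kb downstream of the TSS, in an intron of long transcripts. The replicate 2 peaks scored 52.48 at 32.2 kb upstream, 50.85 at 40.1 kb downstream and 50.62 at 65.3 kb downstream. All 4 were below the median score of their list, and none was within 10 kb of a peak of the other replicate. The GENCODE gene is 96.6 kb long and the RefSeq gene 4.59 kb, so that all 3 peaks inside the former are outside the latter, the replicate 1 peak by 11.6 kb.

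TWIST2 (ENSG00000233608.5, chromosome 2, 238848032 to 238910534, plus strand) had the highest score of any transcription factor window in replicate 2. The peak at chr2:238820583-238821213 scored 84.36 against Input, rank 892 of 16777, and lay 26.8 kb upstream of the TSS. A second peak, chr2:238828184-238828577, was 19.5 kb upstream and scored 57.73, at the median of the list. Replicate 2 had a total of 4 peaks in the window where 1.5 would fall by length, a number within the interval of the count (1.09 to 10.2). The rep1/LacZ list had 1 peak, chr2:238900906-238901198, in an intron of TWIST2 with a score of 65.43, and the nearest replicate 2 peak was 16412 bp from it. The rep1/Input list had none.

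ZEB2 (ENSG00000169554.23, chromosome 2, 144364364 to 144521057, minus strand) had a peak inside the gene in rep2/Input. It was chr2:144402541-144403031, with a score of 61.36, on an exon that is neither coding nor untranslated in the annotation and 118 kb downstream of the TSS. The replicate 2 peaks upstream of ZEB2 lay at 68.5 and 93.4 kb and scored 55.85 and 52.40. In rep1/Input the only peak of the window was in an intron of the neighbouring gene GTDC1, 214 kb from the TSS, with a score of 53.12. It was 95011 bp from the nearest replicate 2 peak. A peak in both replicates against Input therefore did not mean a shared position at ZEB2.

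FOXD3 (ENSG00000187140.6, chromosome 1, 63322567 to 63325128, plus strand) had its closest pair of peaks downstream of the gene. The rep2/Input list had chr1:63346358-63346854 with a score of 53.86, 23.8 kb from the TSS. The rep1/Input list had chr1:63350099-63350456 with a score of 51.40, 27.5 kb from the TSS and 3244 bp from the former. Both were intergenic and below the median of their list. The highest score of the window, 77.66 in rep2/Input, was 81.8 kb away on an exon of ALG6, a glucosyltransferase gene of protein N-glycosylation. A replicate 2 peak in an intron of LINC00466 scored 64.46.

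The SNAIL family had the fewest peaks. SNAI1 (ENSG00000124216.4, chromosome 20, 49982980 to 49988886) had 1, in rep1/LacZ, at chr20:50061756-50062088 with a score of 51.82 and 78.8 kb from the TSS. SNAI2 (ENSG00000019549.13, chromosome 8, 48917598 to 48921740) had 1, in rep2/Input, with a score of 51.72 and 40.6 kb from the TSS. SNAI3 (ENSG00000185669.6, chromosome 16, 88677688 to 88686507) had none in its window, where 0.663, 0.733, 1.19 and 0.0258 peaks would fall by length in the respective lists. Its nearest peaks were 3940 kb away in rep1/Input, 159 kb in rep1/LacZ, 102 kb in rep2/Input and 6030 kb in rep2/LacZ. Numbers this small cannot be told from those given by length.

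The members were next counted together, to see whether their windows held more peaks than their length gives. The rep1/Input list had 7 peaks where 7.84 would fall, a ratio of 0.892 (95% interval 0.359 to 1.84). The rep1/LacZ list had 11 where 8.67 would fall, a ratio of 1.27 (0.633 to 2.27). The rep2/Input list had 18 where 14.1 would fall, a ratio of 1.28 (0.756 to 2.02). The rep2/LacZ list had 0 where 0.305 would fall, and its count interval reached 3.69. Every interval included the number given by length, so neither an excess nor a deficit was detectable in any list. In replicate 1 the ZEB1 and ZEB1-AS1 window held the most peaks, so leaving it out lowers the ratio in any case. Without it, a setting chosen after the values were seen, the ratio was 0.485 (0.1 to 1.42) against Input. Against LacZ it was 0.586 (0.16 to 1.5). In rep2/Input the ratio without this window was 1.44 (0.823 to 2.34).

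**Figure D3:**
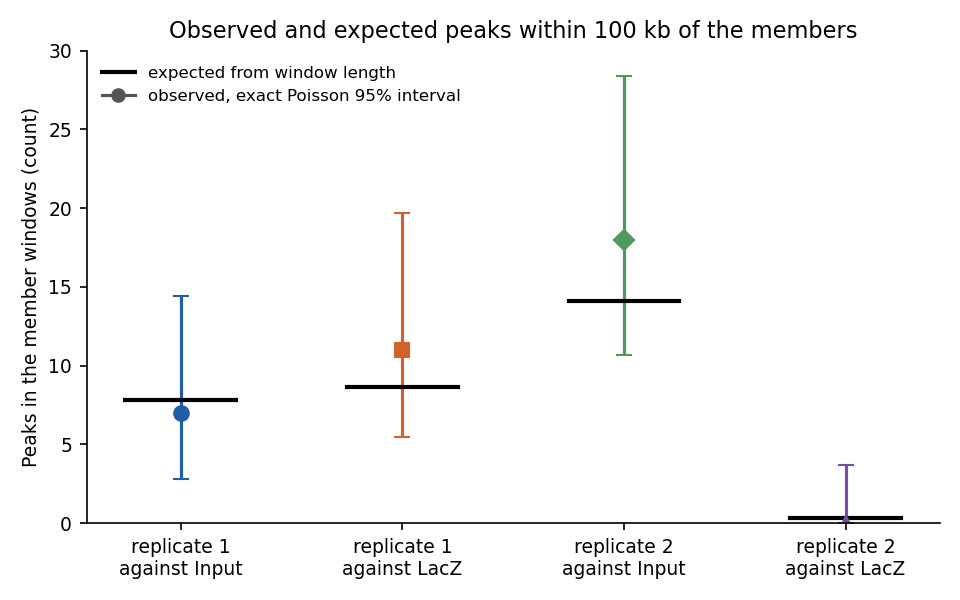
Peaks in the merged member windows for each list (y axis, count). Symbols are observed counts with their exact Poisson 95% interval and black bars the number given by window length, for example 18 observed and 14.1 by length in rep2/Input. The black bar lies within the interval in every list.

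By gene, 5 of 10 members had a peak within 100 kb in rep1/Input, beside 37.0% of all genes. There were 6 in rep1/LacZ beside 53.2%, 7 in rep2/Input beside 59.9%, and 0 in rep2/LacZ beside 3.22%. Member windows are of unequal length, and from their lengths alone 5.62, 5.97, 7.66 and 0.324 members would have a peak. In both replicates against Input, 4 members had one (ZEB1, ZEB2, VIM and FOXD3) beside 27.0% of all genes. Against LacZ, 0 had one in both, beside 2.31%. The member counts were within 1 gene of those given by length in each list.

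The study assigned a peak to a gene when it lay in the body or 5 kb upstream. It did so for CRLM1 peaks that did not overlap LacZ peaks, whereas here each list was used unfiltered. By that rule 2 members had a peak in rep1/Input (ZEB1 and ZEB1-AS1) beside 7.25% of all genes. In rep1/LacZ there were 5 (ZEB1, ZEB1-AS1, TWIST1, TWIST2 and VIM) beside 10.3%, in rep2/Input 3 (ZEB1, ZEB2 and TWIST1) beside 12.1%, and in rep2/LacZ 0 beside 0.495%. Only ZEB1 had a peak in both replicates against Input, where 3.81% of all genes did, and 0 members had one in both against LacZ, where 0.239% did. Most annotated genes are shorter than ZEB1 or ZEB2, and these shares take no account of length.

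With length taken into account, the bodies and upstream 5 kb held 8 peaks in rep1/LacZ where 2.49 would fall, a ratio of 3.21 (1.39 to 6.33), an interval above 1. The ratio was 1.77 (0.483 to 4.54) in rep1/Input and 1.23 (0.401 to 2.88) in rep2/Input. The value of 3.21 fell to 2.21 (0.456 to 6.47) without ZEB1 and ZEB1-AS1 and to 2.88 (0.934 to 6.71) with RefSeq gene bodies. Both settings were chosen after the values were seen. Of the 13 positions inside GENCODE member genes, 8 were inside the RefSeq gene. The interval included 1 in both lists against Input, and rep2/LacZ, with 0.0877 peaks by length, could not show an excess. These numbers by length assume the genome-wide density of each list. As a whole, rep1/LacZ lay nearer to genes than rep1/Input: 53.2% and 37.0% of all genes had a peak within 100 kb. With local density the 100 kb ratio of rep1/LacZ was 1.04 instead of 1.27. How far this property of the whole list enters the 3.21 was not tested.

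No member had a peak within 5 kb of its TSS in any list, where 1.9%, 3.98%, 4.4% and 0.127% of all genes did in rep1/Input, rep1/LacZ, rep2/Input and rep2/LacZ. For 10 genes a count of 0 is not distinguishable from these shares. Within 25 kb there were 4 positions, at VIM, TWIST1, TWIST2 and FOXD3, each in a single list. In those lists, 6.55%, 11.7%, 16.2% and 19.4% of all genes had a peak at the respective distance or nearer. The share of all genes within 25 kb was not computed, and the count is not read as particular to the members. The median distance from a member TSS to the nearest peak was 175 kb in rep1/Input (27.5 to 3940), beside 183 kb over all genes. It was 85.5 kb in rep1/LacZ (8.75 to 258) beside 101 kb, and 62.5 kb in rep2/Input (19.5 to 203) beside 82.1 kb. In rep2/LacZ it was 5020 kb (1010 to 19800) beside 2880 kb. In each list the range over the members was much wider than the difference of the medians.

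**Figure D4:**
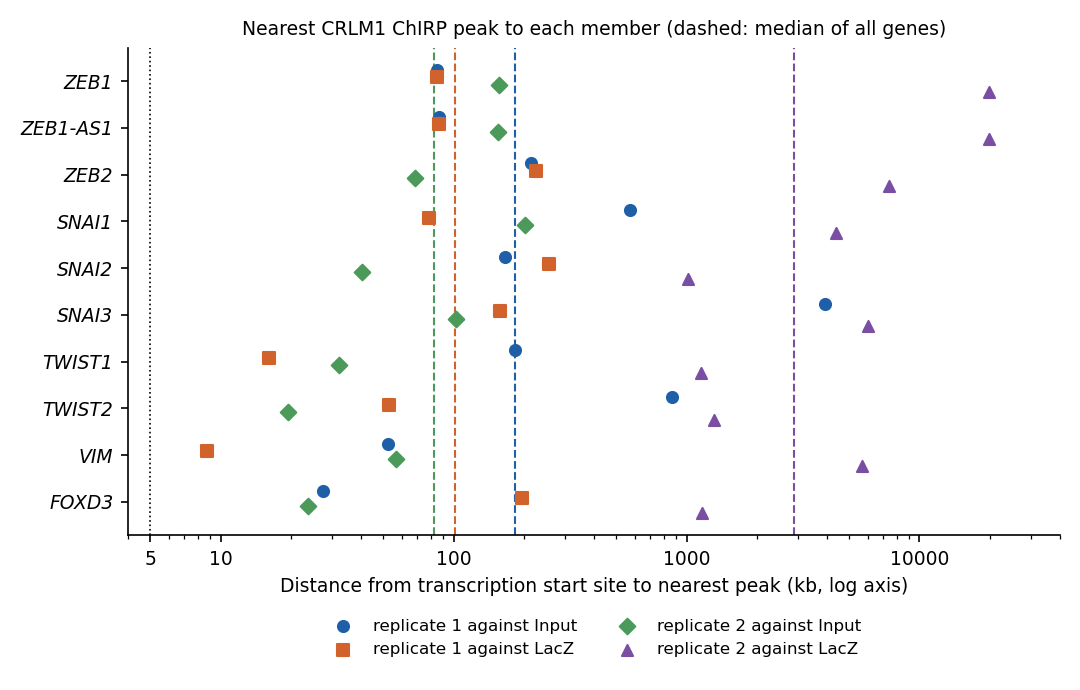
Distance from each member TSS to the nearest peak of each list (x axis, kb, logarithmic). Symbols are lists, dashed lines in the same colours the median over all genes, and the dotted line marks 5 kb. Symbols lie on both sides of the dashed line of their list, and the nearest, at 8.75 kb, is that of VIM in rep1/LacZ.

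Scores of the member peaks were mostly below the list median against Input and above it in rep1/LacZ. In rep1/Input, 2 of 7 were at or above the median of the list, with a lowest, median and highest score of 50.45, 53.47 and 69.00. In rep2/Input, 6 of 18 were (50.25, 54.86 and 84.36). In rep1/LacZ, 8 of 11 were (51.02, 61.36 and 133.60), of which 5 lay in the ZEB1 and ZEB1-AS1 genes. A score of 100 or more was reached by the VIM peak alone, and by 2.06% of that list.

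**Figure D5:**
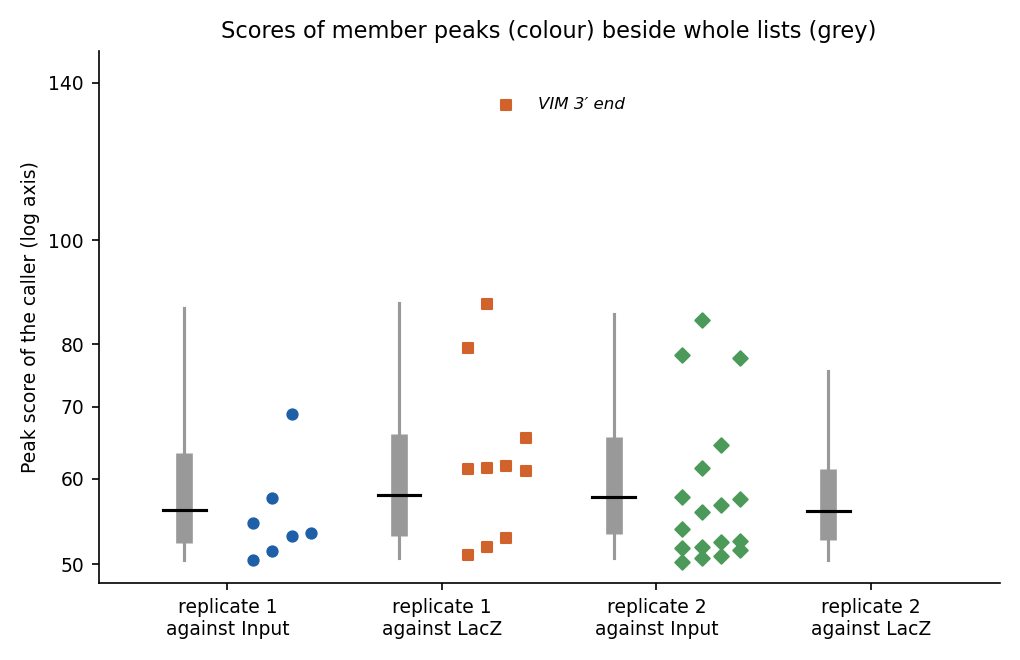
Scores of member peaks (coloured symbols) beside the whole list (grey: 5th to 95th percentile as a line, 25th to 75th as a bar, black mark at the median) on a logarithmic y axis. Points are spread sideways only for legibility. The VIM peak at 133.60 stands above the other member peaks, which reach 87.32.

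Agreement between lists was then measured for the member peaks. In replicate 1, 4 of 7 peaks against Input and 4 of 11 against LacZ were called against both controls, beside 50.3% and 45.6% of the lists, and all 4 lay in ZEB1 or ZEB1-AS1. In replicate 2, 0 of 18 were, beside 2.05%. No member peak overlapped a peak of the other replicate against the same control, which 1.73% of rep1/Input and 0.936% of rep2/Input did. Within 10 kb of a peak of the other replicate against Input there were 5 of 7 in replicate 1, beside 16.3% of the list, and 3 of 18 in replicate 2, beside 9.05%. These were the 3 distal ZEB1 peaks and the pairs downstream of FOXD3 and in TRDMT1, so they amount to 3 places, and the 3 ZEB1 peaks share 1 partner.

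The sequence of the member peaks was compared with that of all peaks in the same list. The E-box CAGGTG, counted on both strands in the central 200 bases, occurred in 1 of 7, 2 of 11 and 3 of 18 member peaks, beside 11.1%, 15.2% and 12.8% of the lists. Among the sequences printed above it is in the ZEB1 peak at 31506511. Runs of at least 4 C on either strand, the kind of sequence that the CRLM1 partner hnRNPK binds, occurred in 3 of 7, 5 of 11 and 7 of 18, beside 42.8%, 51.0% and 45.7%. The member counts were within 2 peaks of those the list shares would give, and a match is a description, not a binding site. The median GC content was 39.2%, 38.5% and 36.4%, beside 38.0%, 41.3% and 38.8% for the lists.

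How far a peak could stem from sequence present elsewhere was measured as the share of its 31-base words that occur more than once in the genome. Only identical words count, so diverged copies of a repeat are missed and a low share does not show that a sequence is unique. The share was 0% at the middle ZEB1 peak, at the last ZEB1 peak, at the ZEB1-AS1 peak at 31233529 and at VIM, and 4.0% at the ZEB1 peak at 31506511. It was 14.6% at the TWIST1 peak of replicate 1, 37.6% at the TWIST2 intronic peak and 49.4% at the LINC00466 peak near FOXD3. At least 50% was reached by 0 of the member peaks and by 3.78%, 4.27% and 3.62% of the lists. None of the 9 CRLM1 capture probes matched a member peak by blastn, and no member peak held an exact match of 14 bases to a probe. Matches by blastn occurred in 3, 1, 1 and 2 peaks of the lists in the order given. Exact matches occurred in 0.214%, 0.165%, 0.197% and 0.551% of the lists. At such shares, a count of 0 among so few member peaks does not set them apart from the lists.

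Other genes of the EMT network were counted by the same windows in 4 lists of names. Of 10 other EMT-inducing transcription factors, 3 had a peak within 100 kb in rep1/Input, 7 in rep1/LacZ, 7 in rep2/Input and 0 in rep2/LacZ, beside 37.0%, 53.2%, 59.9% and 3.22% of all genes. Of 12 epithelial regulators the numbers were 5, 7, 9 and 2, of 12 epithelial markers 1, 4, 6 and 1, and of 12 mesenchymal markers 2, 8, 9 and 0, beside the same shares. These counts take no account of gene length, and differences between the lists of names were not tested. By body and upstream 5 kb, the other transcription factors numbered 1, 2, 2 and 0 and the epithelial regulators 2, 1, 2 and 1. The epithelial markers numbered 0, 1, 0 and 0 and the mesenchymal markers 0, 1, 4 and 0. Of all genes, 7.25%, 10.3%, 12.1% and 0.495% had such a peak, and 3.81% in both replicates against Input. Genes with one in both are named, without regard to length. TCF4, a long helix-loop-helix factor gene of 443 kb, had 2 peaks in rep1/Input, 1 in rep1/LacZ and 6 in rep2/Input, up to a score of 84.24. GRHL2, an epithelial transcription factor gene, had 1 peak in each list against Input, with scores of 70.68 and 69.20.

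ESRP1, which encodes an epithelial splicing regulator, was the only gene of these lists with a peak in its body or upstream 5 kb in rep2/LacZ. Of all genes, 0.495% had one there. Its scores were 105.66 in rep1/Input, 66.09 in rep2/Input and 60.11 in rep2/LacZ, and it had no peak in rep1/LacZ. By the same rule ZEB1 had a peak in every list but rep2/LacZ.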

How the data were processed

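Per the labels and the study's methods, paired-end reads of 6 HCT116 libraries were trimmed with cutadapt and aligned to GRCh38 with Bowtie2, and the authors called peaks with MACS in each CRLM1 library against the Input or LacZ library of the same replicate. The 4 deposited lists hold the position of each peak and its score. MACS2 and a q-value threshold stand in the methods, but peak names and the score floor of 50 resemble an older release, so the caller version and the scale of the score were not settled. The study's removal of peaks shared with LacZ against Input was not applied, since calls of the LacZ libraries over Input were not used here.

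Gene bodies came from GENCODE release 44 and RefSeq. A peak was counted when it shared at least 1 bp with a window. Numbers by length were the density of the list times the ungapped window length, with exact Poisson 95% intervals. No test was made, since each list rests on 1 capture library. Analyses used Python 3.11.15, numpy 2.4.6, pandas 2.3.3, scipy 1.17.1 and blastn 2.17.0 (word size 11, E value at most 0.01), and the window counts were tested on simulated data. Named peaks lay within 25 kb of a member TSS or inside a member gene, were called against both controls of a replicate, lay within 10 kb of a peak of the other replicate, or had the highest score of a window, and a few others were added after their values were seen. Other EMT genes were named for peaks in both replicates against the same control, or in replicate 2 against LacZ, by the gene rule of the study. The members, lists and alternatives were chosen with earlier results of these data known. Peaks on other contigs were left out. The sequence and place of 1 peak are not reported here.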

Additional observations from a re-analysis of the deposited data

How the results depend on the processing

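Of 88 values under other settings, 69 stayed within the counting interval or within 1.5 times of the reported value and 19 moved. With 50 kb on either side, the members with a peak numbered 3 in rep1/Input and 2 in both replicates against Input. With 200 kb, 7 had one in both against Input, and the ratio of observed peaks to those by length in rep1/LacZ was 1.6 (1.03 to 2.38). With the body and 5 kb upstream, the members numbered 2 in rep1/Input, 3 in rep2/Input and 1 in both, beside 7.25%, 12.1% and 3.81% of all genes. The ratio in rep1/LacZ was then 3.21. With weaker peaks than the list median left out, the members numbered 2 in rep1/Input, 4 in rep2/Input and 0 in both. At 100 kb, 27.0% of all genes had a peak in both replicates against Input. For the other windows, the score cut and RefSeq genes, no share of all genes was computed. Those member counts, here and in the next paragraph, therefore have no baseline.

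Further settings were chosen after seeing the data. Without the ZEB1 and ZEB1-AS1 window the ratio in rep1/LacZ was 0.586. With the body and 5 kb upstream of RefSeq genes, the ratios were 1.91 in rep1/Input and 2.88 in rep1/LacZ, and the members numbered 1, 3 and 2 in rep1/Input, rep1/LacZ and rep2/Input, and 1 in both against Input. With the body and 5 kb upstream leaving out ZEB1 and ZEB1-AS1, the ratio in rep1/Input was 0. The ratio over both replicates was 1.14 against Input, and between 0.892 and 1.28 when either replicate was left out. Against LacZ it was 1.23, and between 0 and 1.27. The cause of these shifts was not tested. Narrower windows and a higher score leave fewer peaks for the member counts, whereas the ratios are scaled to window length and list size. Chromosome density, local density and peak midpoints changed no value beyond its interval. No paired analysis was possible because no result comes from a test over samples.

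Each list rests on 1 capture library, and read depth is unknown, so a window without a peak does not show that CRLM1 was absent from it. The list of rep2/LacZ was too short for any statement on 10 genes.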
